A study of Mus musculus with 8 samples.

Results

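The comparison set olfactory mucosa of mice labelled Ccl3-/- against that of C57BL/6 mice over both injections of the study, with the injection as a covariate. Arrays were taken by genotype from the sample titles: 4 arrays labelled Ccl3-/- and 4 labelled C57BL/6, which are 8 of the 8 arrays of the series. In each genotype 2 arrays came from mice injected with carrier and 2 from mice injected with CCL3, also called MIP-1a. All groups, the C57BL/6 controls included, had lost both olfactory bulbs by surgery. The labels give no age, sex, dose, time after surgery or number of animals, and they do not say how the null allele was made or in which strain it was kept. They do not say that replicates were separate animals, so every p-value measures only the spread between arrays, which may be technical.

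Olfactory mucosa is the nasal tissue that holds olfactory neurons, supporting cells, basal stem cells and glands. Removing the olfactory bulb takes away the target of the neurons, which then die and are replaced from basal cells, while macrophages enter the epithelium. CCL3 is a chemokine, a secreted protein that draws leukocytes, and Ccr1 is a receptor for it. The series title names the purpose, the effect of CCL3 on that macrophage entry. Pooling the injections asks which transcripts differ with genotype on average over both. A large difference after a single injection can also produce such an average.

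Of 12488 probe sets, 8150 for 6181 genes exceeded an intensity of 362.7 on at least 2 arrays and were tested. Median intensity per array was 581.4 to 660.3. Differences are Ccl3-/- minus C57BL/6 on the log2(intensity + 102.3) scale, which understates the change of dim genes, and each is given with its standard error (SE) from limma with 4 arrays a side. Adjusted p is by Benjamini-Hochberg over all 8150 probe sets with a threshold of 0.05. The tissue label was checked against markers: Omp of mature olfactory neurons lay at the 97.7th percentile of mean intensity, and Cyp2f2 of supporting cells and Obp1a of nasal glands lay higher still. Krt5 and Krt14 of basal cells, Cd3e and Cd3g of T cells, and Acta1 and Tnnt3 of muscle did not exceed 362.7 on any array. C57BL/6 carrier replicate 1 stood apart. Its ratio of the 3′ to the 5′ control probe set of Gapdh, a sign of RNA integrity, was 2.59 against 0.755 to 1.31 on the other arrays. The same ratio of Actb was lowest on this array, at 1.58 against 1.61 to 2.17 on the others, so the controls do not agree on its RNA. Its Omp was 4251 against 8657 to 21779 elsewhere. Values without this array are given for the genes and lists described at most length.

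Ccl3 itself was measured at a higher level on the arrays labelled as knockout. Here and below, 4 values of a genotype run in the order carrier replicate 1, carrier replicate 2, CCL3 replicate 1, CCL3 replicate 2. On the arrays labelled Ccl3-/-, Ccl3 was at 812, 804, 727 and 729.5, and on the C57BL/6 arrays at 332, 159, 223 and 386.5. The genotypes did not overlap, and the lowest array labelled Ccl3-/- had more than any C57BL/6 array. The difference was 1.25 ± 0.25 (SE, n = 4), or 2.37-fold, with an adjusted p of 0.463 in limma. Without C57BL/6 carrier replicate 1 it was 1.35. The sign went against the label, and the sources used here do not say whether the probes lie inside the disrupted part of the gene. If they lie outside it, they check nothing. Groups are therefore called by their labels, and each direction below rests on them.

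Ligands and receptors next to CCL3 were mostly dim. Ccl4, a chemokine whose gene neighbours Ccl3, was at 54.9 to 167.5 on the arrays labelled Ccl3-/- and 48.1 to 127 on the C57BL/6 arrays, all under the filter. Ccr1, a receptor of CCL3, was under it on 7 of 8 arrays, and only carrier replicate 1 labelled Ccl3-/- lay above it at 572.5. Of 16 genes in the list of CCL3 relatives, neighbours and receptors, 15 were on the array and 8 were tested, with 3 higher and 5 lower and a median of -0.08.

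Ccl9, a chemokine that also binds Ccr1, was 6109, 2205, 2072 and 1474 on the arrays labelled Ccl3-/- and 8532, 3911, 13239 and 4415.5 on the C57BL/6 arrays. Carrier replicate 1 labelled Ccl3-/- lay within the C57BL/6 range, and the other arrays labelled Ccl3-/- lay under all C57BL/6 arrays. The difference was -1.35 ± 0.45 (SE, n = 4) with an adjusted p of 0.844 in limma. Cx3cl1, the ligand of the macrophage receptor Cx3cr1, was at -0.47 ± 0.21 and Cx3cr1 at -0.27 ± 0.22. Ccr2, the receptor that brings monocytes out of the blood, was at -0.04, and its ligand Ccl2 at 0.25.

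Across all probe sets, none passed the adjusted threshold (0%), and the lowest adjusted p values in limma were 0.0662 for Med1 and 0.0677 for Ngp. At an unadjusted p under 0.05, 222 probe sets were higher (2.72%) and 193 lower (2.37%) on the arrays labelled Ccl3-/-, 415 in all (5.09%). Higher on all 4 of them than on all 4 C57BL/6 arrays were 107 probe sets (1.31%), and 153 (1.88%) were lower on all 4, 260 in all (3.19%). Of all probe sets 48.4% had a difference above 0. The median absolute difference was 0.18 on the log2 scale, against a median SE of 0.22. A 2-fold higher level was fitted for 35 probe sets, of which 9 did not overlap, and a 2-fold lower level for 18, of which 7 did not.

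Med1 had the smallest p. It encodes a subunit of Mediator, the complex that connects transcription factors to RNA polymerase. Its intensity was 1133, 1405, 1418 and 1385 on the arrays labelled Ccl3-/- and 493, 488, 336 and 361 on the C57BL/6 arrays. Every array labelled Ccl3-/- had more than double the signal of any C57BL/6 array. The difference was 1.47 ± 0.19 (SE, n = 4), or 2.77-fold, with an adjusted p of 0.0662. It was 1.20 after carrier and 1.74 after CCL3, and 1.53 without C57BL/6 carrier replicate 1. Over the alternative settings its adjusted p ran from 0.00582 to 0.390, on both sides of the threshold.

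Ngp, a protein of neutrophil granules made while the cells mature in the marrow, had the second smallest p. On the arrays labelled Ccl3-/- its values were 1976.5, 609, 1947 and 849. Those of C57BL/6 were 166, 90.7, 127 and 71.5, all under the filter value. Replicate 1 exceeded replicate 2 in every group, yet no array crossed to the range of the other genotype. Its difference was 2.61 ± 0.36 (SE, n = 4) with an adjusted p of 0.0677 in limma, and it was 2.42 after carrier and 2.81 after CCL3. Since the C57BL/6 values lie near the added 102.3, the size of the difference is set partly by that constant and no fold is given. With a larger pseudocount at the 40th percentile of the table it was 1.74 (adjusted p 0.180), and with a floor in place of the pseudocount 3.28 (adjusted p 0.0374). Without C57BL/6 carrier replicate 1, Ngp was at 2.75 with an adjusted p of 0.137, and over all alternative settings its adjusted p ran from 0.00700 to 0.382.

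Camp, the antimicrobial peptide cathelicidin of the same granules, ranked among the top 15 higher genes as well. Its intensity was 2400, 3698, 17005 and 3546 on the arrays labelled Ccl3-/- and 1001, 1398, 1930.5 and 1060 on the C57BL/6 arrays. The genotypes did not overlap, and CCL3 replicate 1 labelled Ccl3-/- lay far above the rest. The difference was 1.81 ± 0.43 (SE, n = 4), or 3.51-fold, with an adjusted p of 0.768. It was 1.83 without C57BL/6 carrier replicate 1.

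**Figure D1:**
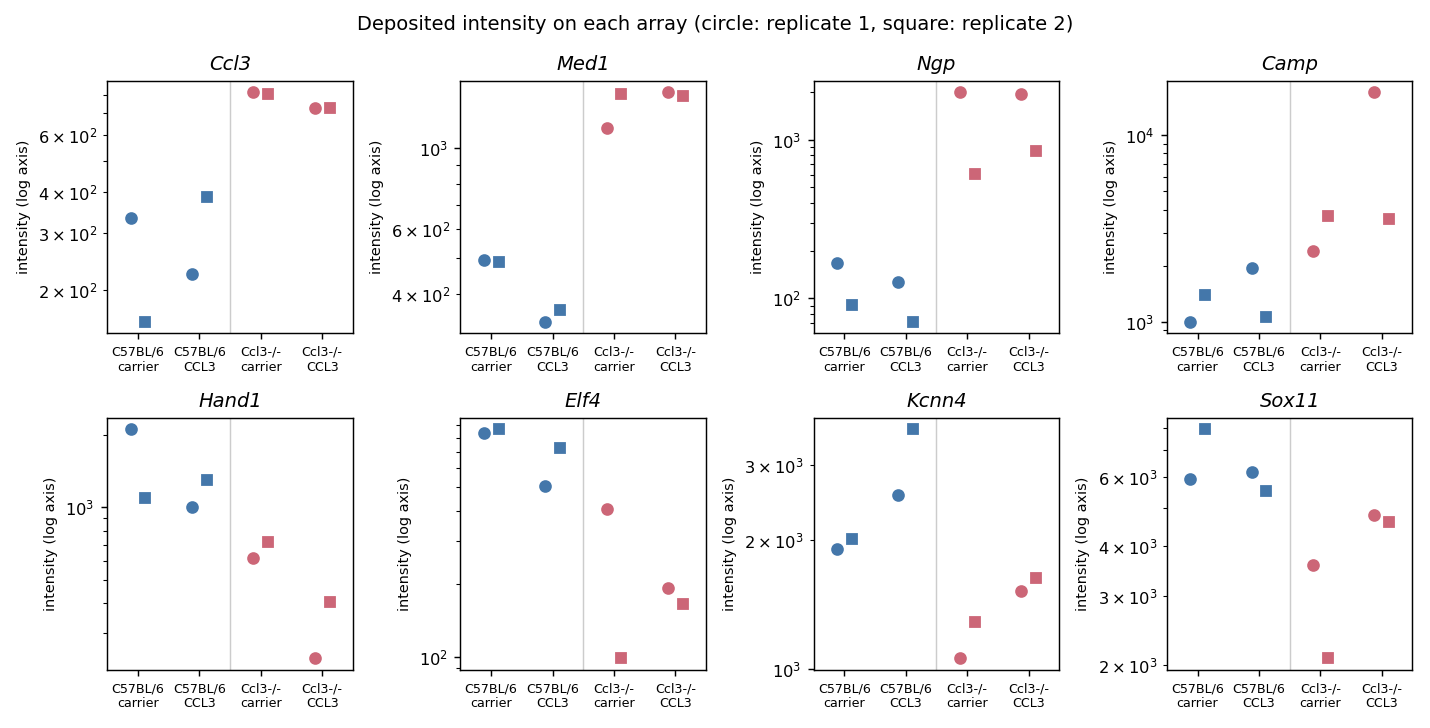
Deposited intensity (log axis) of 8 genes on each of the 8 arrays, grouped by genotype and injection, with circles for replicate 1 and squares for replicate 2. For Ccl3, Med1, Ngp and Camp all 4 arrays labelled Ccl3-/- lie above the C57BL/6 arrays, and for Hand1, Elf4, Kcnn4 and Sox11 all 4 lie below.

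Ngp and Camp are turned on together as neutrophils mature, and both genes lie on chromosome 9, so the 250 bases before each start site are shown, from RefSeq (GRCm38.p6). The Ngp window is chr9:110419558-110419807 on the plus strand and the Camp window chr9:109849457-109849706 on the minus strand, both written 5′ to 3′ along the gene. Both strands were searched for TTNNGNAA, letters of the kind bound by C/EBP factors, whose reverse complement is TTNCNNAA, and matches are in capitals.
Ngp: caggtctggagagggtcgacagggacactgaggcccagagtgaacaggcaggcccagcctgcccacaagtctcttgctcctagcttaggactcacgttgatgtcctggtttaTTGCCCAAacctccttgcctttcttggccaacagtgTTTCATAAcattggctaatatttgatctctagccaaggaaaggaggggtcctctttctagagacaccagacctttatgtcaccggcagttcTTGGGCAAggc
Camp: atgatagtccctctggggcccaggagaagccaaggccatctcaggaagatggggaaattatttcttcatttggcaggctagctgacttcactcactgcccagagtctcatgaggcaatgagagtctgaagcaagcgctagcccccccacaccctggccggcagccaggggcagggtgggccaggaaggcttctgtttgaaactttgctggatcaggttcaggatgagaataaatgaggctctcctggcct
The Ngp window holds 3 matches and the Camp window 0, and 36.8% of 32851 such windows hold at least 1. A match describes letters and is no binding site.

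Neutrophil genes were listed by the stage that uses them. Of 8 tested genes that neutrophil precursors use for granules (9 of 11 were on the array), 7 were higher and 1 lower, with a median of 0.45 against -0.01 over all genes. Only 3 of the 8 had the same sign after each injection, and the list median was 0.37 after carrier and 0.97 after CCL3. At an unadjusted p under 0.05 were 3 (Ngp, Camp and Mpo) higher and 0 lower, and 2 (Ngp and Camp) did not overlap, beside 2.43% and 1.38% of all genes for the higher direction and 2.12% and 1.73% for the lower. Of all genes 48.5% had a difference above 0. Ngp and Mpo exceeded the filter value only on arrays labelled Ccl3-/-, so they could enter the test only as higher there, and the counts are no support for the list. Mpo, the peroxidase of the first granules to form, was 70.8, 508.5, 871 and 450 on the arrays labelled Ccl3-/- and 39.9 to 168 on the C57BL/6 arrays, so that 3 of 4 lay above all C57BL/6 arrays. Its difference was 1.20 ± 0.48 (SE, n = 4). Prtn3, a protease of the same granules, was at -0.09 after carrier and 1.33 after CCL3, and Elane, another, at -0.08 and 0.62. Ltf, lactoferrin, was at 0.07 over both.

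The summed level of the precursor granule genes, taken as their mean log2 deviation from the 8-array mean, was 0.09 to 1.00 on the arrays labelled Ccl3-/- and -0.78 to -0.23 on the C57BL/6 arrays, a description that includes Ngp and Mpo. The list median was 0.57 without C57BL/6 carrier replicate 1. Genes that mature neutrophils keep gave 6 higher and 1 lower of 7, with a median of 0.23 (0.66 after carrier and -0.06 after CCL3), and their summed levels overlapped. The calcium-binding protein S100a8, plentiful in the neutrophil cytoplasm, was 17507, 5958, 8792 and 4211 on the arrays labelled Ccl3-/- and 6505, 1348, 2217 and 2077 on the C57BL/6 arrays. Only C57BL/6 carrier replicate 1 reached into the other range, and the difference was 1.60 ± 0.46 (SE, n = 4; adjusted p 0.844 in limma). Without that array it was 2.01 (adjusted p 0.728). S100a9, its partner, was at 1.32 ± 0.59, while Csf3r, the receptor for the neutrophil growth factor G-CSF, was at -0.20 ± 0.20. In bulk tissue, more cells of a type and more RNA per cell cannot be told apart. Neutrophil precursors live in bone marrow beside red cell precursors, so the summed levels of both other lists are given: 12 bone and cartilage genes lay at -0.02 to 0.38 on the arrays labelled Ccl3-/- and -0.29 to -0.003 on the C57BL/6 arrays, and 8 red cell genes at -0.28 to 0.81 and -0.28 to -0.03. Their part in the neutrophil values was not tested.

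No tested macrophage gene separated the arrays of the genotypes. Of 36 macrophage and microglia markers, 32 were on the array and 24 were tested, with 16 higher and 8 lower. Only 1 was at an unadjusted p under 0.05, and 0 were without overlap. Of all genes 2.43% were higher and 2.12% lower at that p, and 1.38% and 1.73% did not overlap. The counts lie near those shares and are no result about macrophages. The median of the markers was 0.15. With C57BL/6 carrier replicate 1 left out it was 0.03, and with the second carrier array labelled Ccl3-/- left out it was 0.03. Cd68, a lysosomal protein of macrophages, was at 0.13, Csf1r, the receptor of the macrophage growth factor CSF1, at -0.26, and Adgre1, known as F4/80, at 0.33. The 1 gene at an unadjusted p under 0.05 was Ctsk, a protease best known from bone-resorbing osteoclasts, at 0.66 ± 0.27 (SE, n = 4). Its values were 3507, 5149, 2213 and 3183 on the arrays labelled Ccl3-/- and 2777, 1439, 2608 and 1832 on the C57BL/6 arrays. The range overlapped through CCL3 replicate 1 labelled Ccl3-/-.

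Lymphocyte markers had mostly negative differences after carrier. All 9 tested of 24 T, B and NK cell markers had a negative difference over both injections, with a median of -0.19, none at an unadjusted p under 0.05. The median was -0.41 after carrier and 0.02 after CCL3, and 2 of the 9 had the same sign after each. The median over both stayed at -0.19 without C57BL/6 carrier replicate 1. Their summed level was -0.24 to 0.03 on the arrays labelled Ccl3-/- and 0.06 to 0.19 on the C57BL/6 arrays. These ranges lay close together, and the ranges of most other lists overlapped. Of all genes 48.5% had a difference above 0. Ms4a1, the B cell antigen CD20, was at -0.40 ± 0.23, Gzmb, a cytotoxic granule protease, at -0.47 ± 0.27, and Thy1 at -0.48 ± 0.33. Ms4a1 and Thy1 were at 0.04 and 0.02 after CCL3. Genes of MHC class II, with which B cells, dendritic cells and macrophages present antigen, were 3 higher and 6 lower of 9. Their median was -0.09, and their summed levels overlapped between genotypes. At an unadjusted p under 0.05 were 0 higher and 2 lower, beside 2.43% and 2.12% of all genes. The lower were H2-Ab1 at -0.66 ± 0.28 and H2-Eb1 at -0.51 ± 0.22, while Ctss was at 0.29 ± 0.20. H2-Ab1 was 539, 604, 1435 and 1136 on the arrays labelled Ccl3-/- and 1735, 1649, 1173 and 1222 on the C57BL/6 arrays, so both carrier arrays labelled Ccl3-/- were low and the CCL3 arrays were not.

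Alas2, which starts haem production in developing red cells, had an adjusted p of 0.352. Its intensity was 1388.5, 1532 (carrier), 2704 and 3470 (CCL3) on the arrays labelled Ccl3-/- and 803, 735, 1533.5 and 1089.5 on the C57BL/6 arrays. Each injection alone separated the genotypes, and only C57BL/6 CCL3 replicate 1 reached into the other range. The difference was 1.01 ± 0.19 (SE, n = 4), and 1.07 without C57BL/6 carrier replicate 1. Of 8 tested red cell genes 6 were higher, with a median of 0.31 (-0.17 after carrier and 0.64 after CCL3, and 0.51 without that array), and haemoglobin Hbb-b2 was at 0.36 ± 0.20. Slc4a1, the anion exchanger of the red cell membrane, was 366, 338, 1807 and 959 on the arrays labelled Ccl3-/- and 382, 757, 537 and 232 on the C57BL/6 arrays, so its highest values were the CCL3 arrays labelled Ccl3-/-. Probes for one globin can pick up its close copies.

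**Figure D2:**
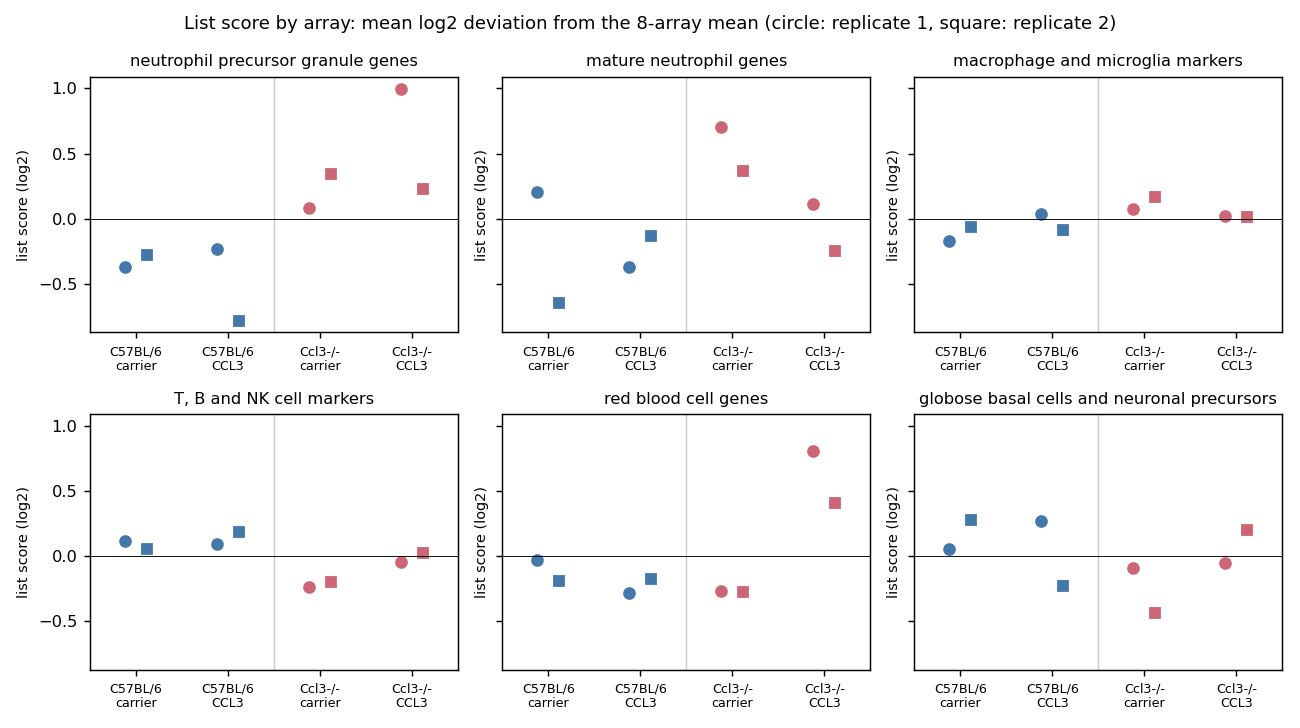
Summed level of 6 gene lists on each array (mean log2 deviation of the list's tested genes from the 8-array mean), with circles for replicate 1 and squares for replicate 2. The neutrophil precursor granule genes lie at 0.09 to 1.00 on the arrays labelled Ccl3-/- and at -0.78 to -0.23 on the C57BL/6 arrays, and the T, B and NK cell markers at -0.24 to 0.03 and 0.06 to 0.19. The former include Ngp and Mpo, which exceeded the filter value only on arrays labelled Ccl3-/-. The ranges of the other lists shown overlap between genotypes.

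Precursor genes had mostly negative differences after carrier and not after CCL3. Of 21 tested genes of globose basal cells and neuronal precursors, 4 were higher and 17 lower over both injections, with a median of -0.21. It was -0.47 after carrier, 0.09 after CCL3 and -0.23 without C57BL/6 carrier replicate 1, and 11 of the 21 had the same sign after each injection. Whether the list differs between injections was not tested. At an unadjusted p under 0.05, 4 were lower and 1 higher, beside 2.12% and 2.43% of all genes, and 2 of the lower, Sox11 and Neurog1, did not overlap, beside 1.73%. Sox11, which acts in newly born neurons, was 3587, 2080, 4792 and 4607 on the arrays labelled Ccl3-/- and 5908, 7926, 6178 and 5534 on the C57BL/6 arrays. The lowest C57BL/6 array exceeded the highest array labelled Ccl3-/-, and the difference was -0.80 ± 0.25 (SE, n = 4; adjusted p 0.844 in limma). It was -0.79 without C57BL/6 carrier replicate 1. A further Sox11 probe set was at -0.52.

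Neurog1, a factor that commits progenitors to the neuronal fate, was 158, 233, 228 and 217 on the arrays labelled Ccl3-/- and 489, 447, 371 and 271 on the C57BL/6 arrays. It did not overlap, at -0.66 ± 0.26 (SE, n = 4), but the 3 arrays over the filter value were all C57BL/6, so it could enter the test only as lower. Neurod1, which acts after it, was at -0.77 ± 0.34, with -1.59 after carrier and 0.05 after CCL3. Dpysl3, a protein of growing axons, went the other way at 1.36 ± 0.50. Mature neuron genes gave 2 higher and 4 lower of 6: Omp was at 0.63 ± 0.35 and Cnga2, a subunit of the odour-gated channel, at 0.49 ± 0.25, while Adcy3, the odour-signalling cyclase, was at -0.50 ± 0.44. A further Cnga2 probe set was at 0.03. Gnb1, the only member at an unadjusted p under 0.05, was at -0.79 ± 0.29, but further probe sets were at 0.84 and 0.02. Without C57BL/6 carrier replicate 1, Omp was at 0.27, Cnga2 at 0.49 and Adcy3 at -0.02.

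Of 26 detoxifying and sustentacular genes 16 were higher, with a median of 0.16. At an unadjusted p under 0.05 were 2 higher and 0 lower, beside 2.43% and 2.12% of all genes. Gsta4, a glutathione transferase, was at 0.46 ± 0.21. Gstm2 was at 1.23 ± 0.52, but its second probe set was at -0.63. Of 14 gland products 8 were higher and 6 lower, with 0 higher and 2 lower at an unadjusted p under 0.05. Their median was 0.32 after carrier and -0.57 after CCL3. The secreted Wfdc18, the gene next to Ccl3 among those tested, was 23581, 71078, 12479 and 12963 on the arrays labelled Ccl3-/- and 47530.0 to 59337 on the C57BL/6 arrays. Carrier replicate 2 labelled Ccl3-/- lay above all others and the other 3 below. The difference was -1.21 ± 0.37 (SE, n = 4). Without that high array it was -1.69, with an adjusted p of 0.0220, past the threshold, and over all settings the adjusted p ran up to 0.935.

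Scgb1b27 belongs to the androgen-binding proteins secreted by glands, a family of close copies that probes may not tell apart. Its values were 6903, 2133, 5469 and 3078 on the arrays labelled Ccl3-/- and 11245, 7459.5, 17109 and 10609.8 on the C57BL/6 arrays. The genotypes did not overlap, and the difference was -1.46 ± 0.35 (SE, n = 4; adjusted p 0.768 in limma). Scgb1b2 of the same family was at -0.61 ± 0.21, also without overlap.

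Immediate early genes, which respond within minutes to stimulation of a cell, gave 8 higher and 13 lower of 21, with 3 lower at an unadjusted p under 0.05, beside 2.12% of all genes. The list median was 0.14 after carrier and -0.16 after CCL3. Fosb, a part of the factor AP-1, was 889, 625, 584 and 638 on the arrays labelled Ccl3-/- and 1150, 1479, 915 and 1227 on the C57BL/6 arrays. It did not overlap, at -0.72 ± 0.19 (SE, n = 4; adjusted p 0.844). Ier2 was at -0.59 ± 0.20 without overlap and Fos at -0.65 ± 0.26, while Egr1 and Dusp1 lay at -0.04 and 0.07.

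Chaperones gave 10 higher and 4 lower of 14. Hsp90aa1 was at 0.54 ± 0.17 and Hspd1, the mitochondrial chaperonin, at 0.50 ± 0.23. Both were higher without overlap, beside 1.38% of all genes. Without C57BL/6 carrier replicate 1 they were at 0.60 and 0.26, and a further Hspd1 probe set was at -0.10. Of 33 cell cycle genes 25 were higher, none at an unadjusted p under 0.05. Their summed level was 0.67 on carrier replicate 2 labelled Ccl3-/- and -0.50 on C57BL/6 carrier replicate 1, against -0.24 to 0.17 on the other 6 arrays. The median difference was 0.19, and 0.08 without that C57BL/6 array. Rrm1, a subunit of the enzyme that makes deoxynucleotides, had the largest difference at 1.004 ± 0.459, and it was 0.53 without that C57BL/6 array.

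The remaining lists gave medians between -0.11 and 0.29. Of 14 complement and acute phase genes 8 were higher, and 3 of the 14 exceeded the filter value only on C57BL/6 arrays. At an unadjusted p under 0.05 were 1 higher and 2 lower, beside 2.43% and 2.12% of all genes. The higher was Orm1, a plasma protein of inflammation, at 0.95 ± 0.38. The lower were C1ra at -0.50 ± 0.19, with a further probe set at -0.08, and Apoa1 at -0.91 ± 0.39. Apoa1 exceeded the filter value only on C57BL/6 arrays, so it could enter the test only as lower. Alb, serum albumin, was 244, 171, 476 and 296 on the arrays labelled Ccl3-/- and 1046, 1301, 223 and 315 on the C57BL/6 arrays, so the high values were the C57BL/6 carrier arrays. The difference was -2.04 after carrier and 0.38 after CCL3. Of 12 bone and cartilage genes 8 were higher (median 0.29), of 15 muscle genes 5 and of 13 glial genes 4. Ctsk and Sparc, a bone matrix protein at 0.96 ± 0.38, were the 2 bone genes at an unadjusted p under 0.05. Of all genes 2.43% were higher at that p, and for both genes the genotypes overlapped. Whether bone or muscle in the dissected tissue contributes to any difference was not tested.

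**Figure D3:**
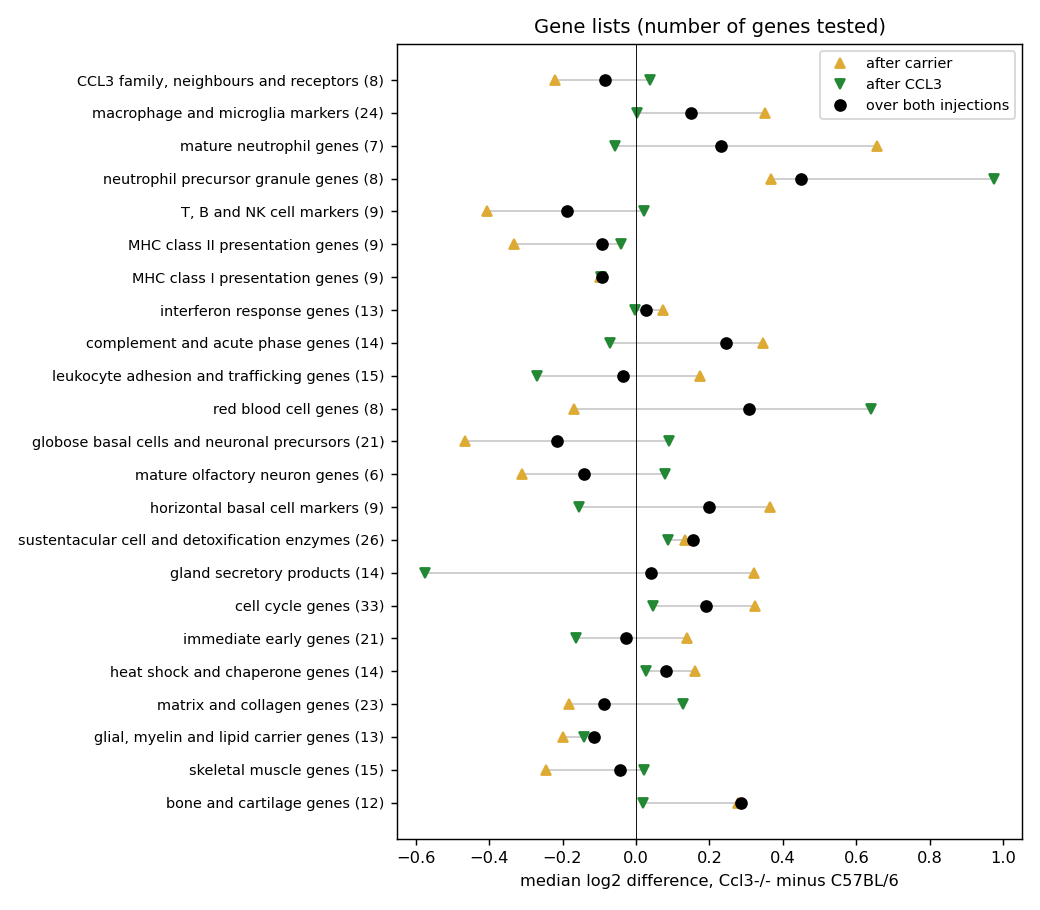
Median log2 difference, Ccl3-/- minus C57BL/6, of 23 gene lists, with the number of genes tested in brackets; black circles are both injections together, upward triangles carrier and downward triangles CCL3. The neutrophil precursor granule genes lie at 0.37 after carrier and 0.97 after CCL3, and most other lists sit nearer 0 after CCL3 than after carrier or change sides.

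The 15 named genes in each direction that did not overlap hold few members of these lists. Ehf, an epithelial ETS factor, was 616, 1232, 612 and 574.5 on the arrays labelled Ccl3-/- and 215, 221, 301 and 419.5 on the C57BL/6 arrays. The difference of Ehf was 1.11 ± 0.29 (SE, n = 4; adjusted p 0.844 in limma). Idh1, a cytosolic source of NADPH, was at 0.87 ± 0.22. Rnf13, a ubiquitin ligase, was 3279, 3851, 3946 and 3811 on the arrays labelled Ccl3-/- and 1570.4, 2497, 2222.5 and 1639 on the C57BL/6 arrays, and its difference was 0.90 ± 0.20 (adjusted p 0.612). A further probe set of Rnf13 was at 0.50. Ifitm6, of the interferon-induced transmembrane family, was at 1.17 ± 0.28 and Akap1, which anchors protein kinase A at mitochondria, at 0.83 ± 0.22. Asb6, Haus3, Maz, Tgoln1 and Fmr1 lay between 0.66 and 0.99.

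Aqp4, the water channel, was higher without overlap by each of 2 probe sets. The brighter read 9616, 9495, 10302 and 9010.2 on the arrays labelled Ccl3-/- and 5204, 6874, 7230.1 and 6789 on the C57BL/6 arrays. It gave 0.56 ± 0.17 (SE, n = 4), and the other 0.90 ± 0.28, with adjusted p of 0.844 in limma for both. Of 1037 genes with several tested probe sets, 83 had at least 1 that did not overlap, and 2 had a pair in the same direction: Aqp4 and Myl4, a myosin light chain, at -0.60 and -0.56. These 2 were singled out after their values were seen. Among 918 genes with exactly 2 probe sets, both had the same sign in 588, and in 46 of the 70 with a probe set that did not overlap. Further probe sets lay elsewhere for Akap1 (-0.19 and 0.04) and Tgoln1 (0.56, -0.02 and 0.70), and for Actb, a cytoskeletal actin often used as a reference, the probe sets were at -0.61 and 1.16.

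Hand1, a helix-loop-helix transcription factor known from heart development, had the smallest p among the probe sets with a gene name and lower values. It was 614, 719, 236 and 406 on the arrays labelled Ccl3-/- and 2105, 1087, 1006.5 and 1298 on the C57BL/6 arrays. The genotypes did not overlap, and the difference was -1.33 ± 0.25 (SE, n = 4), 2.52-fold, with an adjusted p of 0.352. Without C57BL/6 carrier replicate 1 it was -1.21. Elf4, an ETS factor of lymphocytes and other blood cells, was 405, 98.5, 193 and 166 on the arrays labelled Ccl3-/- and 841, 868, 505 and 726 on the C57BL/6 arrays. It was at -1.46 ± 0.30 with an adjusted p of 0.517, and at -1.44 without that array. Kcnn4, a calcium-activated potassium channel of epithelia and leukocytes, was 1061, 1290, 1519 and 1631 against 1911, 2009, 2554 and 3628. The genotypes did not overlap, which was the rule for naming it, and the difference was -0.80 ± 0.18 (adjusted p 0.612 in limma).

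Pex14, which docks proteins for import into peroxisomes, was at -1.33 ± 0.28, but 2 further probe sets were at -0.29 and -0.35. Degs2, an enzyme of sphingolipid synthesis, was at -1.06 ± 0.26 and Timd2, a receptor of the TIM family, at -0.999 ± 0.257, with a further Timd2 probe set at -0.49. Galnt1, which starts sugar chains on secreted proteins, was at -0.72 ± 0.20. Rfng, which modifies Notch receptors, was at -0.56 ± 0.17. Dynll2, Erdr1, Krtap13, Zbed3 and Bag6 lay between -1.06 and -0.60. Bag6 had further probe sets at 0.23 and -0.01 and Dynll2 one at -0.18, while that of Erdr1 was at -0.80.

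The carrier and CCL3 arrays give the genotype difference from arrays that are not shared. Over 8150 probe sets the differences correlated weakly (Pearson r 0.0538, Spearman rho 0.0439), and 51.0% had the same sign. Each array entered only 1 of them, but probe sets are not independent, and leaving out single arrays gave r from -0.0543 to 0.136. The spread was wider after carrier (SD 0.50) than after CCL3 (SD 0.30). In limma, 932 probe sets (11.4%) were at an unadjusted p under 0.05 after carrier beside 121 (1.48%) after CCL3. Both counts came from the same fit with a shared residual variance, which does not allow for noisier arrays after either injection. Array weights in limma, lower for noisier arrays, were 0.37 to 0.96 for the carrier arrays and 0.86 to 3.42 for the CCL3 arrays. Whether the gaps in spread and counts reflect genotype or array noise was not tested. Of the 100 probe sets highest after carrier, 60 were also above 0 after CCL3, beside 52.8% of all, and of the 100 lowest 37 were also below 0, beside 47.2%. Of the 100 highest after CCL3, 53 were also above 0 after carrier, beside 47.9% of all. Of the 100 lowest after CCL3, 53 were also below 0 after carrier, beside 52.1%. Among the named genes, fitted differences of more than 2-fold in the same direction after each injection were found for Ngp, Camp, S100a8, Med1, Dpysl3, Ccl3 and Ifitm6 above 0 and for Elf4, Scgb1b27, Hand1 and Degs2 below 0. Named genes were picked largely by p over both injections and lack of overlap. That choice itself favoured the same direction after each injection, so their agreement is no separate support. Slfn2, which restrains division of leukocytes, was at 2.21 after carrier and -0.07 after CCL3.

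No probe set passed the adjusted threshold for the interaction, the test of whether the genotype difference itself differs between injections. The lowest adjusted p in limma was 0.908, and 412 (5.06%) were at an unadjusted p under 0.05. Among named genes the smallest unadjusted values were 0.00052 for Alb, 0.0014 for H2-Ab1 and 0.0057 for Slc4a1, all with an adjusted p of 0.908.

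**Figure D4:**
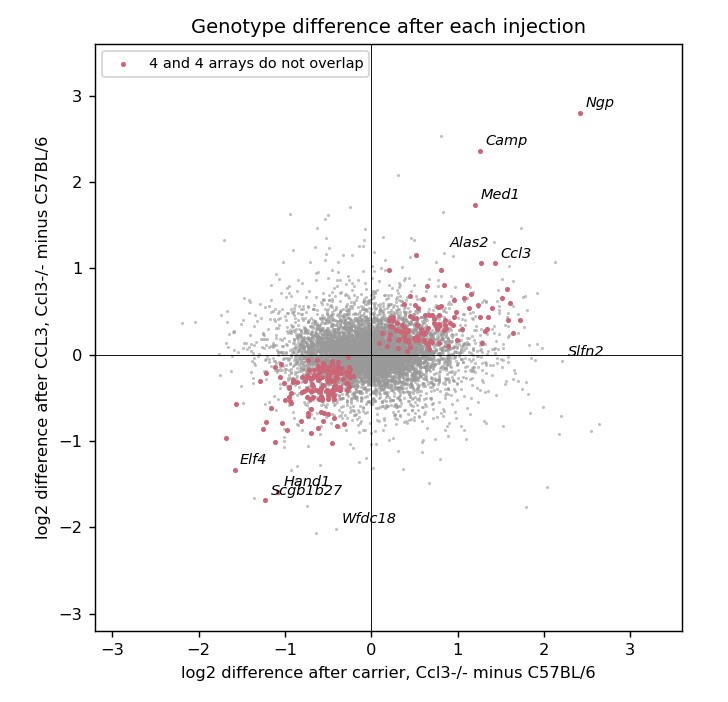
Genotype difference of each of 8150 probe sets after carrier (horizontal axis) and after CCL3 (vertical axis), both log2, Ccl3-/- minus C57BL/6, with probe sets whose 4 and 4 arrays do not overlap in red. Ngp (2.42 and 2.81) and Med1 (1.20 and 1.74) lie far out on both axes, while Slfn2 (2.21 and -0.07) lies far out only after carrier.

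A null allele made in one strain and moved to another can carry neighbouring genes of the first, so the genes around Ccl3 on chromosome 11 were counted in their GRCm38.p6 order. Of the 200 tested genes nearest Ccl3, 100 on each side, 16 (8%) were at an unadjusted p under 0.05 and 11 (5.5%) did not overlap. On the rest of the chromosome these shares were 4.69% and 3.81% of 341 genes, and on other chromosomes 4.40% and 2.96% of 5634. No test was made of these shares. Med1 was the 58th tested gene to one side. Akap1 was the 18th, Mpo the 14th, and Rnft1, at 0.53 without overlap, the 9th. Hoxb8, a homeobox factor, was the 44th at -0.58, and Traf4, a signalling adaptor, the 39th to the other side at -0.40, both without overlap. The strain of the neighbouring segment is not given in the sources used here, and its part in these values was not tested.

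**Figure D5:**
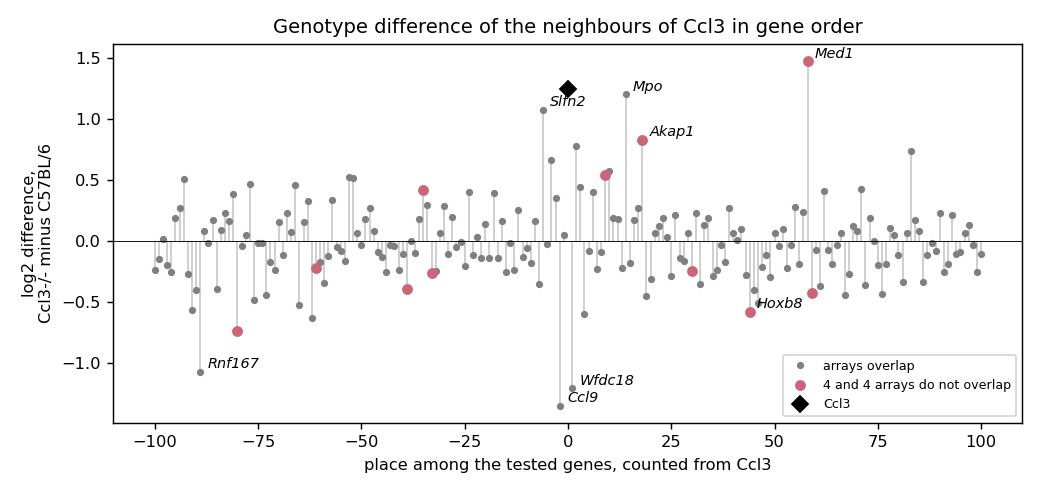
Log2 difference, Ccl3-/- minus C57BL/6, of the 100 tested genes on each side of Ccl3 in gene order, with genes whose arrays do not overlap in red and Ccl3 as a black diamond. Ccl3 (1.25) and Med1 (1.47) are the highest points, and Ccl9 (-1.35) and Wfdc18 (-1.21), at places -2 and 1, the lowest.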

How the data were processed

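Total RNA of olfactory mucosa was measured on 8 single-colour arrays, per the labels. The authors deposited a linear intensity for each probe set on each array. How it was computed and scaled is not given in the sources used here. Means after trimming 2% at each end were nearly equal, so the deposited intensity values were not normalized again.

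Of 12488 probe sets, 66 are controls and were left out. Of the rest, 10833 had 1 gene symbol in the platform annotation, 396 several and 1193 none, and 16 of the named matched no GRCm38.p6 gene record. Values were analysed as log2(intensity + 102.3), the 20th percentile. The 8150 probe sets over 362.7, the 40th percentile, on at least 2 arrays were tested. limma (3.58.1, R 4.3.3) fitted genotype plus injection with an intensity trend (5 residual degrees of freedom) and Benjamini-Hochberg adjustment. A fit of 4 groups (4 residual degrees of freedom) gave the differences after each injection and the interaction. Lists used the brightest tested probe set of each gene and were counted, not tested. Lists are set beside 6181 genes, and counts over the whole table are of probe sets.

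Named genes were Ccl3 and its relatives, the 15 with the smallest p in each direction among those without overlap, up to 4 of each list by p, and checks. Others were chosen after their values were seen, and an item of the rule is not reported here. The comparison and the lists were chosen with earlier results of these data known.

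The alternatives were other normalizations, pseudocounts, a floor, filters, no trend, array weights, no covariate, the 4-group fit, the replicate number as a block, all probe sets of a gene, 2 looser thresholds and leaving out arrays singly. The genotype fit was tested on simulated data. Same-numbered arrays did not deviate together in every pair of groups (r from -0.158 to 0.178), so numbers were not treated as pairs. Figures were drawn with matplotlib 3.10.9. The number of arrays limits the precision.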

Additional observations from a re-analysis of the deposited data

Results flagged for a closer look

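In 280 sets of 4 arrays of 1 genotype (117 named probe sets and 23 list levels, in each genotype), 12 had an array far from the other 3 by Dixon's criterion. Chance alone gives about 1 in 20. C57BL/6 carrier replicate 1 stood apart for Omp, at 4251 against 12511.5 to 14771, and for the summed level of gland secretory products, at -1.26 against 0.31 to 0.58. C57BL/6 carrier replicate 2 stood apart for Bgn, a matrix proteoglycan (12612 against 9699 to 9763), Hba-a1, a globin (26791 against 42590.4 to 46598), and Cd79a, a B cell receptor subunit (1078 against 489 to 547). Carrier replicate 1 labelled Ccl3-/- was low for Med1, at 1133 against 1385 to 1418, and for Cyp2e1, at 2373 against 3701 to 3997. Carrier replicate 2 labelled Ccl3-/- was high for the keratin Krt17 (2252 against 699 to 784) and for Ehf (1232 against 574.5 to 616). C57BL/6 CCL3 replicate 1 was high for Gsta4, at 6856 against 4391 to 4678, and C57BL/6 CCL3 replicate 2 for the summed level of horizontal basal cell markers, at 0.19 against -0.18 to -0.14. CCL3 replicate 2 labelled Ccl3-/- was low for Casq1, a muscle protein, at 614.5 against 743 to 755. The causes were not tested.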

How the results depend on the processing

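No probe set passed the threshold in the reported fit. Counts past it were 1 with cyclic loess (Med1, adjusted p 0.0433), 2 with a floor in place of the pseudocount and 2 without the covariate (Med1 and Ngp in both), and 4 with array weights (Alas2, Med1, Ngp and Rnf167, a ubiquitin ligase). They were 2 at a threshold of 0.10 and 2 at 0.25. Leaving out single arrays gave 0 to 2, with Ngp and Wfdc18 past it without carrier replicate 2 labelled Ccl3-/-. The replicate number as a block gave 1, Ngp with an adjusted p of 0.00700, and the numbers are not known to pair the arrays. All other settings gave 0, and the lowest adjusted p over every setting ran from 0.00582 to 0.382. Med1 kept its direction throughout, between 1.12 and 1.69, as did Ngp between 1.74 and 3.28.

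Lower probe sets at an unadjusted p under 0.05 were 362 without a filter and 123 with a filter at the 60th percentile, and array weights gave 374 higher and 310 lower. Without single arrays they were 117 to 364 higher and 121 to 276 lower. Probe sets without overlap were 250 lower with no filter, and 164 to 356 higher and 223 to 432 lower without single arrays, where fewer arrays have to stay apart. List medians moved for macrophage markers (0.0496 with array weights, 0.0649 with all probe sets of a gene, 0.0269 to 0.226 without single arrays) and bone genes (0.54 and 0.48 with stricter filters, 0.0429 with array weights, 0.0871 to 0.409 without single arrays). Without single arrays, further medians changed by less than the SD of the list's summed level between arrays of a genotype. They ran as follows for cell cycle genes (-0.0013 to 0.43), complement and acute phase genes (0.014 to 0.32), gland products (-0.36 to 0.16) and red cell genes (0.10 to 0.51). The ranges were 0.06 to 0.37 for mature neutrophil genes, 0.28 to 0.70 for neutrophil precursor genes and -0.35 to -0.08 for neuronal precursors. For mature neuron genes the range was -0.34 to 0.06, for MHC class II genes -0.29 to 0.04 and for sustentacular genes 0.05 to 0.23. With the filter at the 60th percentile, the medians of CCL3 relatives and horizontal basal cell markers were -0.47 and -0.15, and no T, B or NK marker was left to test. Mup5 (-0.00607 with quantile normalization), Cd79a (0.00072 without C57BL/6 carrier replicate 2, and -0.43 at the lowest without single arrays) and Lcn2 (-0.00408 without carrier replicate 2 labelled Ccl3-/-, and 0.42 at the highest) changed sign in these settings, all close to 0. The causes were not tested. A group left with 1 array is assumed to vary like the others.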
